A study of Mus musculus with 18 samples.

Results

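The axon guidance ligands and receptors described here are 69 protein-coding mouse genes, taken by symbol from the Slit, Robo, Sema, Plxn, Ntn, Unc5, Epha, Ephb, Efna and Efnb families with Nrp1, Nrp2 and Dcc. All 69 had at least 1 listed transcript, out of 28563 genes with one. Of these, 61 reached at least 0.5 CPM (counts scaled to a common library size) in 3 libraries and were tested among 15347 genes. The other 8 (Epha6, Epha8, Epha10, Ntn5, Plxna4, Robo3, Sema4f and Slit1) fell below that level and were not tested. Symbols that only begin with the same letters (6 Slitrk genes, Unc50, Unc5cl, Ntng1 and Ntng2) were left out.

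Guidance proteins were named for steering growing axons, and most of them also act on other moving or contacting cells. Secreted slits bind Robo receptors, netrins bind Dcc and the Unc5 receptors, semaphorins bind plexins, and the secreted class 3 semaphorins mostly need a neuropilin (Nrp1 or Nrp2) beside the plexin. Ephrins sit on the cell surface and bind Eph receptors on neighbouring cells, A ephrins through a lipid anchor and B ephrins as transmembrane proteins. In the mouse heart and its vessels these families are known for outflow tract septation (Sema3c, Plxna2, Plxnd1), for arterial and venous identity (Efnb2, Ephb4), for endothelial sprouting (Nrp1, Unc5b, Robo4) and, for Slit and Robo genes, for septa, valves and the pericardium.

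Ventricles of E14.5 mouse embryos gave 18 libraries of polyadenylated RNA. The genotypes lack Irx3, Irx4 or both, a pair of genes for Iroquois homeobox transcription factors. The groups were 6 libraries labelled as knockout for both genes (DKO), 3 labelled Irx3KO, 3 labelled Irx4KO, 3 double heterozygotes (dHet, 1 mutant copy of each gene by their label) and 3 wild type (WT). Strain, the design of the mutant alleles and whether 1 library is 1 embryo are not given in the labels, so p-values measure the spread between libraries, which may be technical. Libraries held 26721576 to 45946741 estimated counts. They form 2 sets that differ technically: set 1 holds DKO 5, 7 and 10 with WT 1, 2 and 3, and set 2 holds DKO 2, 3 and 4 with Irx3KO 1, 2 and 4, Irx4KO 2, 3 and 4 and dHet 2, 3 and 4. Genotypes were compared only inside a set, except in 1 alternative fit of DKO against WT that took all 6 DKO libraries together.

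Irx3 stood between 2.58 and 4.27 CPM in libraries labelled as homozygous for the Irx3 mutation and between 12.9 and 28.4 CPM in the others. Irx4 stood between 215 and 279 CPM in libraries labelled homozygous for the Irx4 mutation and between 78.4 and 191 CPM in the others. These ranges do not overlap, but Irx4 is higher under the mutant label, so its counts do not show a loss of Irx4. DKO and Irx4KO below mean libraries so labelled. DKO 4, dHet 2 and WT 3 held at most 1.44 CPM of Y-linked transcripts in all, where each of the remaining libraries held at least 98.1 CPM. Summed cardiomyocyte markers ran from 31000 to 37800 CPM, with all 10 of 10 detected. Between the DKO libraries of set 1 and those of set 2, 1 genotype on both sides, 16 of 61 guidance genes were lower in set 1 and 0 higher, where 20.5% of all genes were called, 11.6% lower and 8.82% higher. At an unadjusted p under 0.05, 21 guidance genes passed, against 33.7% of all genes. Sema5a, a transmembrane semaphorin, showed the smallest p of these, at 39.7 ± 3.20 CPM in DKO of set 1 and 68.2 ± 2.96 CPM in DKO of set 2 (SD, n = 3 each). Guidance transcripts are long, with a median length of 4549 bases against 2446 over all genes tested. Spearman's rank correlation, across genes, of a library's deviation on transcript length ran from -0.452 (DKO 5) to -0.241 in set 1 and from 0.042 to 0.385 in set 2. DKO 5 stood apart most, with chi-squares per gene of 63.8 and 61.5 to its fellow DKO libraries of set 1.

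Levels per length are given in TPM (a gene's share of the library's transcripts after scaling by their length), as the mean ± SD over all 18 libraries, which spans genotypes and library sets. The 10 highest members were split evenly between receptors and ligands. Nrp1, which binds class 3 semaphorins and VEGF, came first at 86.9 ± 13.4 TPM. Plxnb2, a receptor for class 4 semaphorins, followed at 80.1 ± 7.78 TPM, and Plxnd1, the endothelial plexin, at 68.4 ± 8.10 TPM. Nrp1 and Plxnb2 differed by less than the SD of either, and the order changed with the group. In DKO of set 1 Nrp1 averaged 68.2 ± 12.7 TPM, below Plxnb2 at 83.7 ± 14.4 TPM and Ntn1 at 76.8 ± 5.49 TPM, and in WT Nrp1 at 72.0 ± 3.98 TPM stood beside Efnb3 at 71.9 ± 8.07 TPM. Among ligands, netrin 1 (Ntn1) averaged 70.4 ± 6.67 TPM and the transmembrane ephrin Efnb3 averaged 69.3 ± 7.70 TPM.

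Several families had 1 member far above the rest. Ephb4, the venous Eph receptor, averaged 48.8 ± 3.92 TPM, and the next B receptor by level, Ephb3, averaged 5.88 ± 3.03 TPM. Its arterial ligand Efnb2 averaged 28.1 ± 2.85 TPM. Among A receptors, Epha7 averaged 25.6 ± 4.76 TPM and Epha2 8.34 ± 1.26 TPM, while the A ephrins were led by Efna1 at 30.0 ± 4.17 TPM and Efna5 at 17.1 ± 3.19 TPM. The netrin receptor Unc5b averaged 47.6 ± 3.81 TPM, against 3.71 ± 1.07 TPM for Unc5c and 1.10 ± 0.465 TPM for Dcc, the other class of netrin receptor. Ntn4, a laminin-like netrin of basement membranes, averaged 8.25 ± 2.02 TPM.

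Slit2 averaged 22.0 ± 7.63 TPM and Slit3 8.22 ± 2.00 TPM, and Slit1 was at or below 0.264 TPM in every library. The Robo receptors ran from Robo1 at 15.2 ± 2.70 TPM through Robo2 at 8.33 ± 1.90 TPM to Robo4 at 6.02 ± 2.08 TPM, with Robo3 at or below 0.205 TPM. Of 20 semaphorins, the transmembrane Sema6d was highest at 33.3 ± 6.19 TPM and Sema4d, the ligand of Plxnb1, second at 22.4 ± 1.60 TPM. The secreted class 3 members lay lower, from Sema3a at 12.3 ± 3.13 TPM, Sema3d at 10.8 ± 2.07 TPM, Sema3c at 9.87 ± 1.83 TPM and Sema3b at 8.89 ± 1.42 TPM down to Sema3e at 0.816 ± 0.136 TPM. Over the whole set, 24 members averaged at least 10 TPM, 33 between 1 and 10 TPM and 12 below 1 TPM. Plxna4 was listed at 0 in all 18 libraries.

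**Figure D1:**
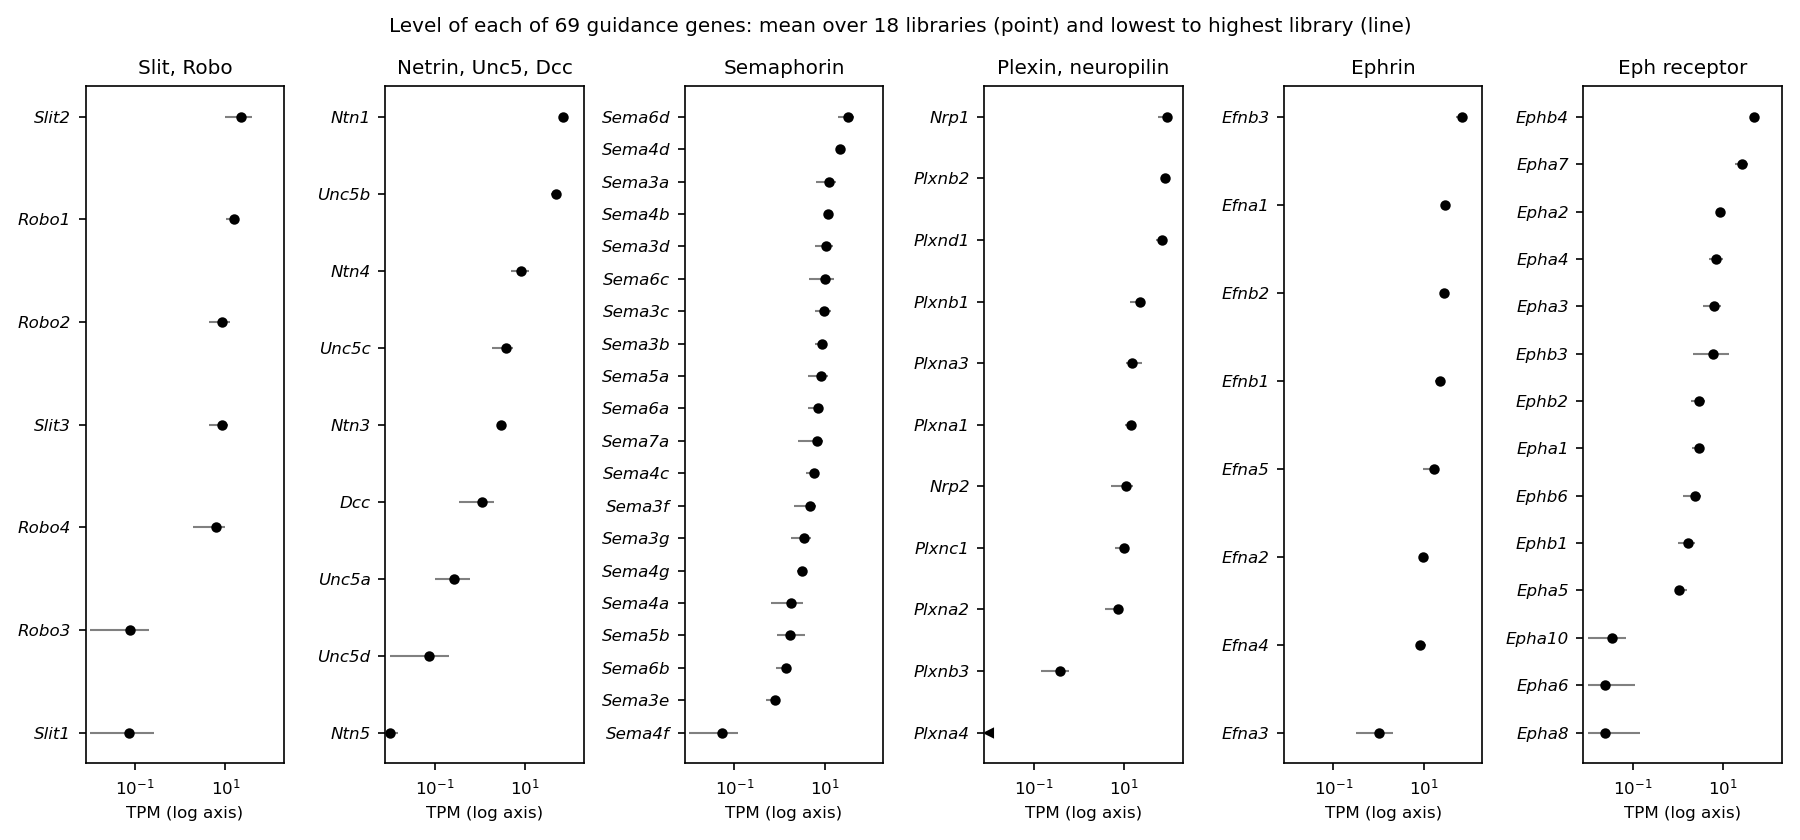
Each row is 1 of the 69 guidance genes, grouped into 6 panels by ligand or receptor family. The horizontal axis is TPM on a log scale, the point is the mean over 18 libraries, the line runs from the lowest to the highest library, values under 0.01 TPM are drawn at 0.01, and the arrowhead marks Plxna4, listed at 0. Nrp1 has the highest mean over all libraries at 86.9 TPM, and levels within a panel span a wide range.

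The ventricle expresses several matched ligand and receptor pairs at once. Cells of many types share a ventricle, and in bulk tissue fewer cells of a type and less RNA per cell cannot be told apart. Endothelial and endocardial markers, whose cells are known to carry Nrp1, Plxnd1, Unc5b, Robo4 and Ephb4, summed to between 1140 and 1340 CPM over all libraries, with 10 of 10 markers detected. Of 14 markers of neural crest, neurons and Schwann cells, 9 passed the filter on low counts, and all 14 together summed to between 118 and 163 CPM.

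Slit2 showed the lowest levels in libraries labelled with 2 mutant copies of Irx4, in both library sets. In set 1 these are DKO libraries, also labelled knockout for Irx3, so the Irx4 and Irx3 labels cannot be told apart there. Slit2 in set 1 had 46.4, 45.5 and 70.6 CPM in DKO 5, 7 and 10, against 89.2, 113.1 and 71.2 CPM in WT 1, 2 and 3. DKO 10 and WT 3 almost touch, and the other libraries lie well apart. In set 2 it had 52.7, 67.3 and 66.3 CPM in DKO 2, 3 and 4, and 71.1, 65.8 and 65.7 CPM in Irx4KO 2, 3 and 4. The other groups of set 2 were higher, with 117.6, 142.1 and 102.5 CPM in Irx3KO 1, 2 and 4 and 98.5, 85.4 and 103.6 CPM in dHet 2, 3 and 4. DKO and Irx4KO overlapped each other, and neither overlapped Irx3KO or dHet. Groups of 3 libraries can separate by chance. How many of all genes separate inside a set was not counted, for Slit2 or for the genes below.

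In DKO against Irx3KO, Slit2 was the 1 guidance gene called of 61 (log2 fold change -0.96, SE 0.19, 95% interval -1.36 to -0.56, edgeR adjusted p = 0.039), in a comparison where 0.45% of all genes were called in either direction and 0.261% lower. At an unadjusted p under 0.05, 6 guidance genes were lower and 0 higher, where 7.96% of all genes passed, 3.9% higher and 4.07% lower. The mean of Slit2 was 62.1 ± 8.15 CPM in DKO and 121 ± 20 CPM in Irx3KO (SD, n = 3 each). Without any 1 of these 6 libraries the call was lost, with edgeR adjusted p between 0.069 and 0.2 and log2 fold changes between -1.06 and -0.83. It was also lost without dHet 2 or 4 or any Irx4KO library (edgeR adjusted p 0.053 to 0.061), libraries that enter only through the shared estimate of the spread. Summed macrophage markers stood at 42.2 to 50 CPM in DKO against 60.1 to 67.4 CPM in Irx3KO. Of these 6 markers 1 was called lower, and their median log2 fold change was -0.12. Erythroid markers had a median of -0.5, with 0 of 6 called. Atrial markers stood higher, at 1860 to 2160 CPM in DKO against 1650 to 1680 CPM in Irx3KO, with 0 of 6 called. At an unadjusted p under 0.05 in edgeR, 3 atrial markers were higher and 1 lower. Other lists also stood higher in DKO, with neural crest, neuron and Schwann markers at 144 to 163 CPM in DKO against 132 to 141 CPM in Irx3KO (0 of 9 called, 2 higher at an unadjusted p under 0.05) and epicardial markers at 236 to 266 CPM in DKO against 215 to 236 CPM in Irx3KO (0 of 8 called). Their part in the result was not tested.

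Set 1 gave Slit2 54.2 ± 14.2 CPM in DKO and 91.2 ± 21.1 CPM in WT, a log2 fold change of -0.75 (SE 0.19, 95% interval -1.15 to -0.35) that missed the threshold in edgeR (adjusted p = 0.062). The remaining differences for Slit2 were -0.63 (SE 0.19) in DKO against dHet, -0.50 (SE 0.19) in Irx4KO against dHet and 0.84 (SE 0.19) in Irx3KO against Irx4KO, on the log2 scale, with edgeR adjusted p of 0.24, 0.77 and 0.077. These comparisons share libraries inside set 2 and are given side by side.

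A contrast of all libraries labelled homozygous for the Irx4 mutation with the rest of set 2 was added after these values were seen, so it describes the same libraries again and is no independent evidence. Slit2 fell to 64.8 ± 6.27 CPM in the 6 DKO and Irx4KO libraries, against 108 ± 19.5 CPM in the 6 Irx3KO and dHet libraries (log2 fold change -0.73, SE 0.13, 95% interval -1.01 to -0.45, edgeR adjusted p = 0.018). It was lower in 6 of 6 libraries. The same contrast called Sema3b lower, so 2 of 61 guidance genes were called, against 0.893% of all genes in either direction, 0.43% higher and 0.463% lower. Leaving out Irx4KO 4 took Slit2 just past the threshold, with an edgeR adjusted p that rounds to 0.05, and left 0 guidance genes called. Macrophage markers summed to 42.2 to 50 CPM in DKO and 45.8 to 54.3 CPM in Irx4KO, against 60.1 to 67.4 CPM in Irx3KO and 47 to 59 CPM in dHet, with 1 of 6 called lower. Atrial markers summed to 1860 to 2160 CPM in DKO and 1720 to 1830 CPM in Irx4KO, against 1650 to 1680 CPM in Irx3KO and 1420 to 1660 CPM in dHet, with no overlap and 1 of 6 called higher. In this contrast the macrophage list had a median log2 fold change of 0.03, so its markers did not fall together. Medians were 0.18 for cushion and fibroblast, 0.17 for atrial, 0.14 for neural crest, neuron and Schwann and 0.13 for epicardial markers. They were 0.11 for smooth muscle and pericyte, 0.03 for cardiomyocyte, 0 for endothelial and endocardial and -0.07 for erythroid markers. Outside the macrophage and atrial lists, 0 markers were called. The part of these lists was not tested.

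The corresponding contrast for the Irx3 mutation, also added, called 0 guidance genes in edgeR, where 0.0261% of all genes were called, and 5 guidance genes had an unadjusted p under 0.05, against 7.55% of all genes. Slit2 averaged 91.4 ± 34.9 CPM in the 6 libraries labelled homozygous for the Irx3 mutation and 81.7 ± 16.7 CPM in the 6 others, a log2 difference of 0.11 (95% interval -0.17 to 0.39). The Irx3 by Irx4 interaction of Slit2 was -0.46 on the log2 scale (95% interval -1.02 to 0.11, edgeR adjusted p = 1). No gene of 15347 was called for the interaction in edgeR, and 2 guidance genes had an unadjusted p under 0.05, against 2.74% of all genes.

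**Figure D2:**
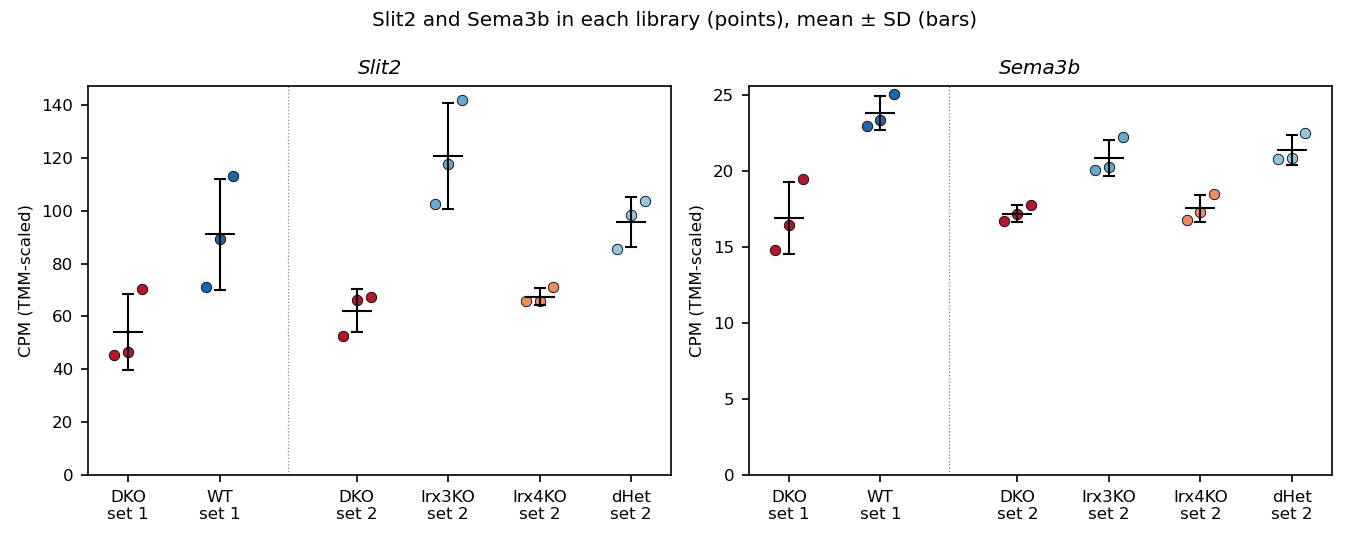
CPM of Slit2 and Sema3b in each library, by group, with DKO left of WT in set 1 and DKO, Irx3KO, Irx4KO and dHet in set 2 right of the dotted line. Points are libraries drawn in order of value, horizontal bars are means and error bars are SDs (n = 3). For both genes every DKO and Irx4KO library lies below every other library of its set, and the share of all genes that separate inside a set was not counted.

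Slit2 lies on chromosome 5 and is transcribed from a promoter whose bases are shown because the gene was called, with its paralog Slit3, on chromosome 11, for contrast. Both sequences are RefSeq promoters of build GRCm38.p6, read 5′ to 3′ on the plus strand over the 250 bases before the start site, at chr5:47982905-47983154 for Slit2 and chr11:35121206-35121455 for Slit3. Capitals mark TATAAA, searched on both strands.
Slit2: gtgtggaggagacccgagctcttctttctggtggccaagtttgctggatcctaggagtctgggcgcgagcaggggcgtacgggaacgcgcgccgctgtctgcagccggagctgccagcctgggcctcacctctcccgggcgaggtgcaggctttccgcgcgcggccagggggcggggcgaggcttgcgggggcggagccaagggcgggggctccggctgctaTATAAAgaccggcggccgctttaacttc
Slit3: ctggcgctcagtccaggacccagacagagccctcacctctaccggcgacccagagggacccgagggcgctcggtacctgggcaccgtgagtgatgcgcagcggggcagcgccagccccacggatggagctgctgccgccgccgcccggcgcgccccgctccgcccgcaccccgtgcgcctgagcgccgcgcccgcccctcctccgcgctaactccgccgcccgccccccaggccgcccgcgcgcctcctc

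The Slit2 promoter holds TATAAA once, with its first base at -28 from the start site, and the Slit3 promoter holds none. The window searched ran from 250 bases before to 50 after the start. TATAAA occurred in 13.62% of 32851 RefSeq promoters of that length and in 2 of 75 promoters of the 59 guidance genes that matched the table. The palindrome ACANNTGT, the site known to be bound by Iroquois proteins, occurred in neither Slit promoter, in 2 of the 75 guidance promoters and in 7.38% of all promoters. These matches describe letters in this window only. GC content was 68.0% for Slit2 and 78.3% for Slit3, against a median of 64.3% over guidance promoters and 52.7% over all.

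Slit2 counts were spread over several transcripts, of which those of 6854, 5762 and 5100 bases held most. The longest of these held 58.7 to 81.5% of the Slit2 counts in DKO and 60.4 to 65.1% in WT of set 1. In set 2 it held 35.0 to 37.7% in DKO, 39.4 to 43.8% in Irx3KO, 34.6 to 53.0% in Irx4KO and 36.3 to 46.6% in dHet, so every library of set 1 lay above every library of set 2. The 3 tested genes on either side of Slit2 (Fam184b, Ncapg, Lcorl, 5730480H06Rik, Kcnip4 and Gm10025) were not called in DKO against WT, in DKO against Irx3KO or in the Irx4 contrast. In DKO against WT their log2 fold changes ran from -1.06 for Fam184b (edgeR adjusted p = 0.26) and -0.56 for Kcnip4 (edgeR adjusted p = 0.48) to -0.04 for 5730480H06Rik.

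Slit3, also a secreted Robo ligand, had 19.8, 17.1 and 23.6 CPM in DKO 5, 7 and 10, against 27.0, 26.9 and 28.9 CPM in WT 1, 2 and 3, with no overlap (log2 fold change -0.45, SE 0.13, edgeR adjusted p = 0.11). In set 2, DKO averaged 29.9 ± 3.84 CPM and Irx4KO averaged 37.8 ± 3.72 CPM, against 30.3 ± 5.66 CPM in dHet. The Irx4KO minus dHet difference of Slit3 was 0.32 (SE 0.13), opposite in sign to that of Slit2 and past no threshold (adjusted p = 0.85 in edgeR). The receptors Robo1 and Robo2 gave log2 fold changes of -0.03 (SE 0.12) and -0.08 (SE 0.17) in DKO against WT.

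Robo4, the endothelial Robo, showed the smallest p of all guidance genes in DKO against dHet. It had 13.3, 7.99 and 5.04 CPM in DKO 2, 3 and 4, against 17.8, 26.4 and 18.7 CPM in dHet 2, 3 and 4. The groups did not overlap, and DKO itself varied widely (log2 fold change -1.26, SE 0.34, edgeR adjusted p = 0.19). In Irx3KO it stood at 18.3 ± 3.63 CPM and in Irx4KO at 16.1 ± 7.06 CPM. Set 1 gave 12.96, 14.1 and 15.4 CPM in DKO 5, 7 and 10, against 15.1, 16.5 and 22.2 CPM in WT 1, 2 and 3, which overlap. Endothelial and endocardial markers summed to 1150 to 1260 CPM in DKO of set 2 and 1200 to 1330 CPM in dHet, with 0 of 10 called.

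Sema3b, a secreted class 3 semaphorin that signals through neuropilins and plexins, was the 1 guidance gene called in DKO against WT, where edgeR called 243 genes, 1.58% of those tested, and 0.899% lower. It had 19.4, 14.8 and 16.4 CPM in DKO 5, 7 and 10, against 22.9, 25.0 and 23.3 CPM in WT 1, 2 and 3. Every DKO library lay below every WT library. It fell by 0.49 on the log2 scale (SE 0.09, 95% interval -0.68 to -0.30, edgeR adjusted p = 0.011), to 16.9 ± 2.37 CPM in DKO, against 23.8 ± 1.12 CPM in WT (SD, n = 3 each). The call held without any 1 of the 18 libraries, with edgeR adjusted p between 0.0011 and 0.04. It was lost in fits of set 1 alone, which estimate the spread from 6 libraries (log2 fold change -0.49, edgeR adjusted p = 0.27).

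In set 2, Sema3b had 17.7, 16.7 and 17.2 CPM in DKO 2, 3 and 4 and 17.3, 16.8 and 18.5 CPM in Irx4KO 2, 3 and 4. Irx3KO 1, 2 and 4 had 20.04, 20.2 and 22.2 CPM, and dHet 2, 3 and 4 had 20.9, 20.8 and 22.5 CPM. These values fall into the same 2 levels as those of Slit2, with a smaller step. The added Irx4 contrast gave 17.4 ± 0.678 CPM in the 6 DKO and Irx4KO libraries and 21.1 ± 1.01 CPM in the 6 others, a fall of 0.28 on the log2 scale (SE 0.064, edgeR adjusted p = 0.047). That call was lost without any 1 of the 12 libraries of set 2, with edgeR adjusted p between 0.07 and 0.13, and without any 1 WT library. No single comparison of 2 groups inside set 2 called Sema3b, with edgeR adjusted p of 0.21 in DKO against dHet, 0.31 in DKO against Irx3KO, 0.65 in Irx4KO against dHet and 0.36 in Irx3KO against Irx4KO.

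The genes next to Sema3b on chromosome 9 include its paralog Sema3f, which lay at 9.57 ± 2.12 CPM in DKO and 12.3 ± 1.79 CPM in WT and was not called (edgeR adjusted p = 0.57), and Gnai2 and Ifrd2, with log2 fold changes of -0.01 and 0.10 in DKO against WT.

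Cell type markers differed between DKO and WT of set 1 beside these values. Summed cardiomyocyte markers stood at 35000 to 36600 CPM in DKO and 31000 to 32400 CPM in WT, with 1 of 10 called higher. Atrial markers stood at 2510 to 2760 CPM in DKO and 1570 to 2070 CPM in WT, with 3 of 6 called higher, and macrophage markers at 51.2 to 77.3 CPM in DKO and 74.3 to 132 CPM in WT, with 1 of 6 called lower. Erythroid markers stood at 2600 to 4440 CPM in DKO and 3420 to 6910 CPM in WT, which overlap. Their median log2 fold change was -0.67, with 0 of 6 called and 2 lower at an unadjusted p under 0.05 in edgeR. The part of these lists in the guidance results was not tested. Endothelial and endocardial markers stood at 1160 to 1260 CPM in DKO and 1140 to 1240 CPM in WT, and epicardial markers at 263 to 306 CPM in DKO and 234 to 272 CPM in WT, with 0 called in both lists.

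The remaining guidance genes of DKO against WT gave no call. Unadjusted p under 0.05 was reached by 14 of the 61, 3 higher and 11 lower, where 7.33% of all genes were higher and 7.09% lower at that level. The median log2 fold change of the 61 was -0.14, against 0.005 over all genes tested and -0.05 over the 2341 genes at least as long as the median guidance transcript. Removing each library's trend on transcript length called 6 guidance genes (Nrp2, Ntn1, Plxna1, Sema3b, Slit2 and Unc5b), and DESeq2 called 7 (Nrp2, Ntn1, Plxnb1, Sema3b, Slit2, Slit3 and Unc5b). The calls over all genes also increased in these fits, to 358 with the length trend removed and 603 in DESeq2. Leaving out 1 library moved the count of 1 to 5 without DKO 10, to 3 without DKO 5 or WT 3, and to 2 without WT 2, DKO 4, dHet 3 or dHet 4. Over all genes these fits called 555 without DKO 10, 588 without DKO 5, 137 without WT 3, 195 without WT 2, and from 235 to 271 without DKO 4, dHet 3 or dHet 4. Without WT 1 the guidance count was 1 and the count over all genes 87.

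**Figure D3:**
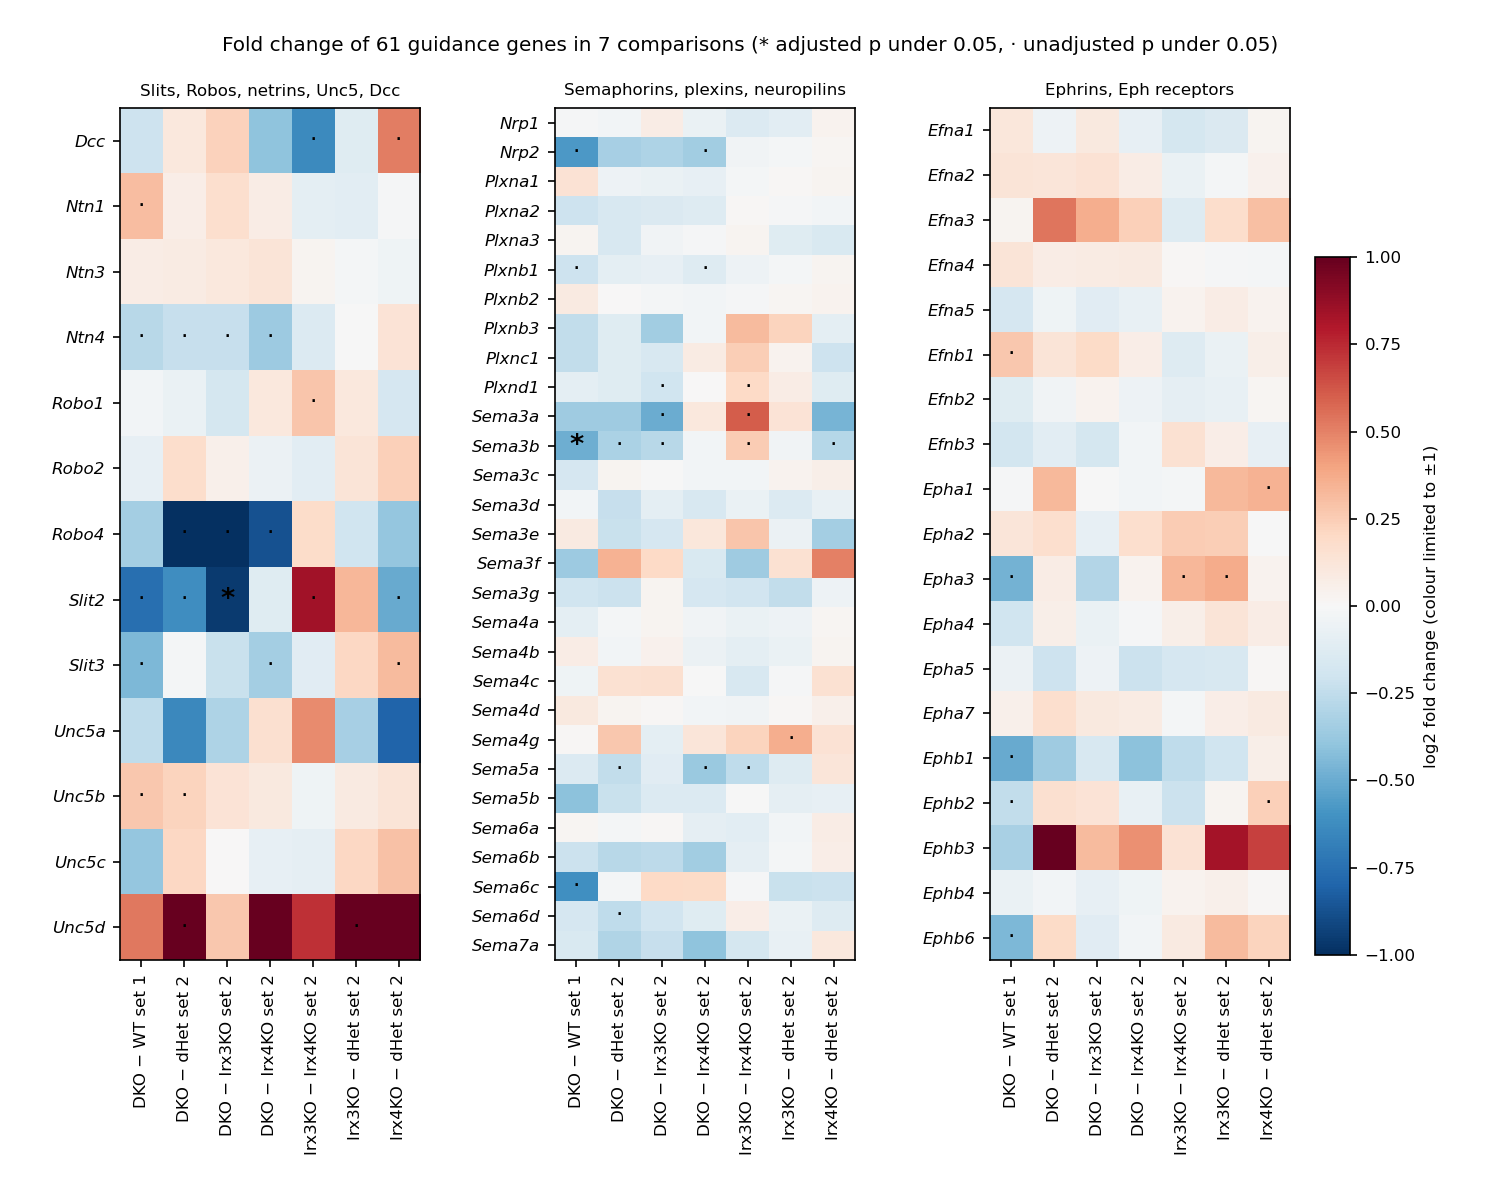
Log2 fold changes of the 61 tested guidance genes (rows) in 7 comparisons (columns, first group minus second), with red higher and blue lower in the first group and the colour limited to a log2 fold change of 1 either way. Asterisks mark adjusted p under 0.05 and dots unadjusted p under 0.05 in edgeR. The 2 asterisks are Sema3b in DKO against WT and Slit2 in DKO against Irx3KO.

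Among netrin genes, the receptor Unc5b and its ligand Ntn1 were the nearest to the threshold on the higher side. Unc5b had 222.8, 231.5 and 223.6 CPM in DKO 5, 7 and 10, against 183.8, 186.0 and 193.4 CPM in WT 1, 2 and 3, with no overlap and little spread (log2 fold change 0.27, SE 0.066, edgeR adjusted p = 0.054). In set 2 it had 210.7, 221.4 and 211.7 CPM in DKO, against 191.9, 162.3 and 196.3 CPM in dHet 2, 3 and 4 (log2 fold change 0.23, SE 0.067, edgeR adjusted p = 0.22). Irx3KO 1, 2 and 4 had 195.0, 199.4 and 190.3 CPM of Unc5b. Irx4KO 2, 3 and 4 had 196.7, 189.2 and 215.2 CPM, so DKO and Irx4KO overlapped. Ntn1 had 322.4, 320.5 and 339.9 CPM in DKO 5, 7 and 10, against 242.0, 240.3 and 310.8 CPM in WT 1, 2 and 3. WT 3 stood near the DKO libraries (log2 fold change 0.31, SE 0.085, edgeR adjusted p = 0.081), and without it the difference was 0.44 with an edgeR adjusted p of 0.0076. WT 3 was the 1 library of set 1 with low summed Y-linked counts (0.911 CPM), so sex and library cannot be told apart there. With a covariate for embryo sex edgeR called Ntn1. Of the set 2 libraries with low Y-linked counts, DKO 4 had 290.6 CPM of Ntn1, between DKO 2 (254.2 CPM) and DKO 3 (295.7 CPM). The other, dHet 2, had 258.8 CPM, below dHet 3 (279.1 CPM) and dHet 4 (264.6 CPM). Why WT 3 stood near the DKO libraries was not tested. In set 2, Ntn1 averaged 280 ± 22.6 CPM in DKO and 267 ± 10.4 CPM in dHet.

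Ntn4 was lower in each DKO comparison at an unadjusted p under 0.05 and passed the adjusted threshold in none of them. It averaged 19.8 ± 1.46 CPM in DKO, 23.2 ± 1.76 CPM in Irx3KO, 25.5 ± 2.58 CPM in Irx4KO and 23.2 ± 2.65 CPM in dHet of set 2. Dcc stood low everywhere, at 1.95 ± 0.821 CPM in DKO and 2.25 ± 0.388 CPM in WT, and its largest difference between groups of set 2 was Irx3KO at 4.02 ± 0.487 CPM against Irx4KO at 6.25 ± 1.15 CPM (log2 fold change -0.63, edgeR adjusted p = 0.4). Unc5d averaged 0.656 ± 0.433 CPM in DKO and 0.0939 ± 0.163 CPM in dHet, where dHet 2 and dHet 3 were listed at 0, and was not called (edgeR adjusted p = 0.42).

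Nrp2, the neuropilin of lymphatic and venous endothelium and of neurons, had 24.3, 29.1 and 35.1 CPM in DKO 5, 7 and 10, against 50.5, 35.3 and 46.0 CPM in WT 1, 2 and 3. WT 2 stood next to DKO 10, and the difference missed the threshold (log2 fold change -0.58, SE 0.16, edgeR adjusted p = 0.082). In set 2 it had 44.6, 53.4 and 35.1 CPM in DKO 2, 3 and 4, and from 50.5 to 64.4 CPM in the other 9 libraries of that set, so DKO 3 lay inside their range. Its paralog Nrp1 gave 308 ± 49.2 CPM in DKO and 311 ± 10.8 CPM in WT, a log2 fold change of -0.01 (SE 0.084), and 397 ± 17.2 CPM in DKO and 405 ± 12.6 CPM in dHet.

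**Figure D4:**
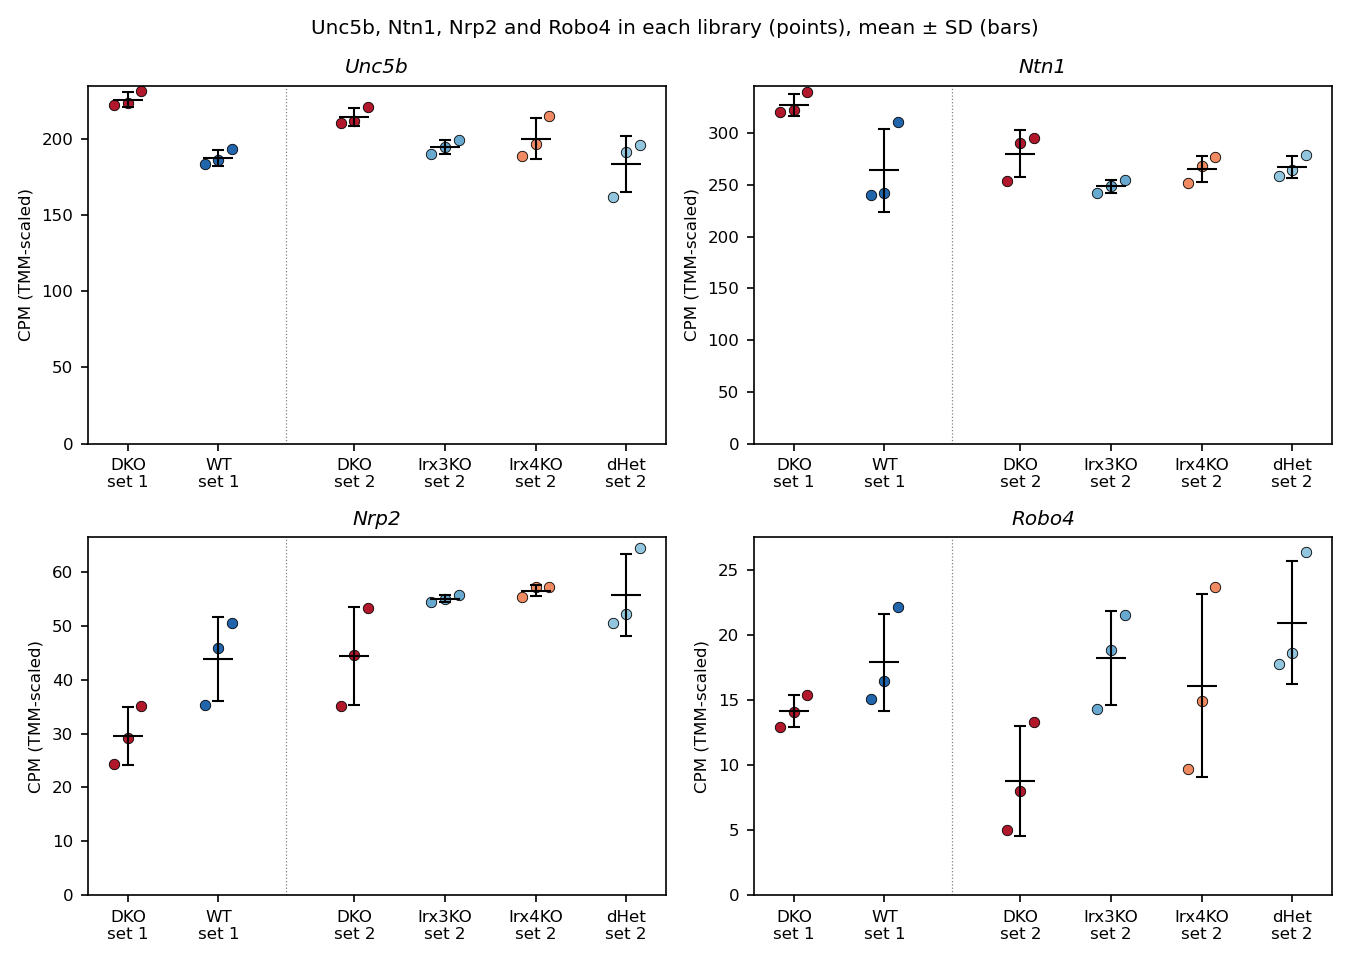
CPM of Unc5b, Ntn1, Nrp2 and Robo4 in each library by group and set, drawn as points with the mean and SD (n = 3 a group). Unc5b shows DKO above WT with no overlap, Ntn1 and Nrp2 each have 1 WT library close to DKO, and Robo4 is lowest in DKO of set 2. None of these 4 genes passed the threshold in the main edgeR fit, while Unc5b, Ntn1 and Nrp2 passed it in some alternative edgeR fits of DKO against WT.

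No plexin was called between genotypes in edgeR with all 18 libraries, the filter of 0.5 CPM and the length trend left in place. Plxnb1, the Sema4d receptor, had 91.1, 96.8 and 98.4 CPM in DKO 5, 7 and 10, against 108.7, 108.2 and 113.6 CPM in WT 1, 2 and 3, with no overlap (log2 fold change -0.21, SE 0.054, edgeR adjusted p = 0.063). It was called with a filter of 1 CPM (edgeR adjusted p = 0.049), without DKO 10 (edgeR adjusted p = 0.041) and in DESeq2. Plxnd1, which binds Sema3e directly and Sema3c with a neuropilin, averaged 324 ± 19.0 CPM in DKO and 324 ± 3.15 CPM in Irx4KO, against 372 ± 25.1 CPM in Irx3KO and 353 ± 14.9 CPM in dHet. Its added Irx4 contrast gave -0.16 (SE 0.049, edgeR adjusted p = 0.18). Plxna2 averaged 39.5 ± 6.65 CPM in DKO and 45.6 ± 3.59 CPM in WT, and Plxna1 averaged 85.0 ± 9.84 CPM in DKO and 76.8 ± 3.06 CPM in WT, neither past the threshold, while with the length trend removed Plxna1 had an edgeR adjusted p of 0.044. Plxnb2 gave a log2 fold change of 0.09 (SE 0.055) in DKO against WT.

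The class 3 semaphorins of the outflow tract and vessels gave no call in DKO against WT other than Sema3b. Sema3c averaged 32.8 ± 9.25 CPM in DKO and 37.0 ± 5.45 CPM in WT, and Sema3d averaged 41.9 ± 10.4 CPM in DKO and 42.6 ± 2.68 CPM in WT. Sema3a had 25.96, 36.9 and 48.5 CPM in DKO 5, 7 and 10, against 48.7, 52.6 and 40.9 CPM in WT 1, 2 and 3, which overlap. In set 2 Sema3a averaged 36.6 ± 8.70 CPM in DKO and 34.0 ± 3.95 CPM in Irx4KO, against 51.7 ± 9.43 CPM in Irx3KO and 47.0 ± 9.06 CPM in dHet, an order like that of Slit2 with overlapping libraries (added Irx4 contrast -0.48, SE 0.16, edgeR adjusted p = 0.23). Sema3g and Sema3e gave log2 fold changes of -0.20 (SE 0.26) and 0.09 (SE 0.19) in DKO against WT. Of the transmembrane members, Sema6a gave 0.02 (SE 0.11), and Sema6d gave -0.17 (SE 0.093) there and -0.25 (SE 0.093) in DKO against dHet.

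Eph receptors and ephrins gave no call between genotypes in edgeR with all 18 libraries. Efnb3 averaged 142 ± 22.8 CPM in DKO and 161 ± 14.4 CPM in WT (log2 fold change -0.19, SE 0.091, edgeR adjusted p = 0.37), and without DKO 5 the difference was -0.32 with an edgeR adjusted p of 0.026. Epha3, whose loss in mice affects the endocardial cushions, had 15.5, 17.4 and 20.6 CPM in DKO 5, 7 and 10, against 23.4, 28.9 and 22.0 CPM in WT 1, 2 and 3 (log2 fold change -0.47, SE 0.15, edgeR adjusted p = 0.15), with no overlap. In set 2 it stood at 25.6 ± 4.51 CPM in DKO and 24.3 ± 3.5 CPM in dHet. Of the arterial and venous pair, neither gene was called, with Efnb2 at 82.0 ± 4.26 CPM in DKO and 89.0 ± 7.40 CPM in WT and Ephb4 at 142 ± 17.8 CPM in DKO and 149 ± 7.95 CPM in WT (log2 fold changes -0.12, SE 0.087, and -0.07, SE 0.074). Efna1 averaged 30.9 ± 7.05 CPM in DKO and 28.5 ± 6.09 CPM in WT, and Epha7 averaged 84.4 CPM in DKO and 81.7 CPM in WT (log2 fold change 0.05, SE 0.14). Efnb1, an X-linked B ephrin, averaged 53.4 ± 6.95 CPM in DKO and 44.2 ± 4.83 CPM in WT (log2 fold change 0.27, SE 0.093, edgeR adjusted p = 0.17), and the groups overlapped.

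Ephb3 varied more than any other tested receptor of its class, from 2.40 CPM in dHet 3 to 36.3 CPM in DKO 4. The estimated counts of its main transcript, of 4185 bases, fell on whole multiples of 152.5 counts, from 0 to 8, in 17 of 18 libraries, with a tolerance of 0.06 of that step. What sets the step was not tested, so its values are uncertain and no direction is given for it.

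The smaller comparisons of set 2 are given by their counts. In DKO against dHet, edgeR called 0 of 61 guidance genes and 0.0977% of all genes (0.0586% lower), DESeq2 called 2 (Robo4 and Slit2) and limma-voom 0. There 8 guidance genes had an unadjusted p under 0.05, 2 higher and 6 lower, where 9.98% of all genes did, 5.26% higher and 4.72% lower. Without DKO 5, which is not in that comparison, edgeR called 1 (Sema3b). In DKO against Irx4KO, edgeR, DESeq2 and limma-voom each called 0 guidance genes, with 0.0261% of all genes called in edgeR, and 6 guidance genes had an unadjusted p under 0.05, all lower, where 5.9% of all genes did, 2.84% higher and 3.06% lower. They were led by Ntn4 (log2 fold change -0.37, SE 0.11), Sema5a (-0.37, SE 0.11) and Slit3 (-0.34, SE 0.13), with edgeR adjusted p of 0.65, 0.7 and 0.83. Irx3KO against Irx4KO gave 0 guidance genes in edgeR and limma-voom, with 0.306% of all genes called in edgeR, and 1 in DESeq2 (Slit2). Unadjusted p under 0.05 was reached there by 8 guidance genes, 6 higher and 2 lower, where 8.87% of all genes reached it, 4.22% higher and 4.66% lower. Without DKO 10 or WT 2, which are not in that comparison, edgeR called 1 (Slit2).

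Each single genotype against dHet gave 0 guidance genes in edgeR, DESeq2 and limma-voom. Irx3KO against dHet had 0.00652% of all genes called and 3 guidance genes with an unadjusted p under 0.05, all higher, where 4.22% of all genes did, 2.26% higher and 1.96% lower. The smallest p there was that of Sema4g, a transmembrane semaphorin, at 11.3 ± 0.568 CPM in Irx3KO and 8.77 ± 0.170 CPM in dHet (edgeR adjusted p = 1). Irx4KO against dHet had 0.013% of all genes called and 6 guidance genes with an unadjusted p under 0.05, 4 higher and 2 lower, where 5.46% of all genes did, 3.23% higher and 2.23% lower. The 2 lower ones were Sema3b and Slit2.

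DKO against WT and DKO against dHet share no library, so their signs can be set side by side. Of the 61 guidance genes, 30 (49.2%) were lower in both, 13 higher in both and 18 opposite, and 29.5% of all genes tested were lower in both. Long genes leaned the same way, with medians of -0.05 and -0.06 in these comparisons over genes at least as long as the median guidance transcript. The medians of the guidance genes were -0.14 and -0.03, so in DKO against dHet they leaned less than long genes did. The share of long genes lower in both was not counted. Slit2, Sema3b and Robo4 were lower in both and Unc5b and Ntn1 higher in both.

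**Figure D5:**
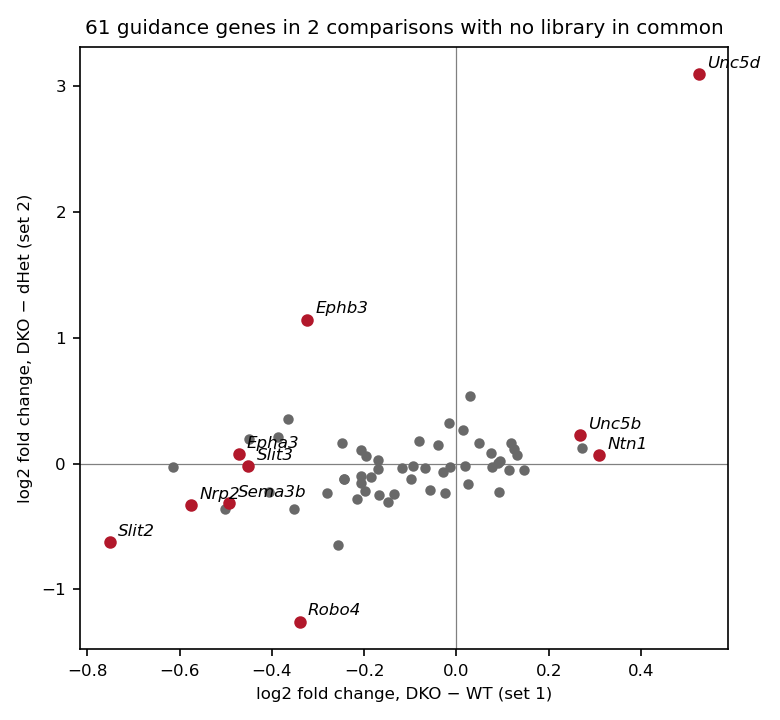
Each point is 1 of the 61 tested guidance genes, with the log2 fold change of DKO minus WT in set 1 on the horizontal axis and of DKO minus dHet in set 2 on the vertical axis, and 10 named genes in red. Slit2 lies lower left at -0.75 and -0.63. Unc5d, at 3.09 on the vertical axis, has means under 1 CPM in all 4 groups drawn.

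Partners of these proteins were counted from lists of known co-receptors, other ligands and intracellular effectors. In DKO against WT, 3 of 22 tested co-receptors and other ligands were called, 1 higher and 2 lower, and 2 of 50 tested intracellular genes, 1 higher and 1 lower, against 0.684% of all genes higher and 0.899% lower. Flrt3, a membrane protein that binds Robo1 and Unc5 receptors, fell to 19.8 ± 2.43 CPM in DKO, against 33.3 ± 3.94 CPM in WT (log2 fold change -0.75, edgeR adjusted p = 0.019). Cxcl12, a chemokine that also guides axons, fell to 189 ± 21.4 CPM in DKO, against 254 ± 22.3 CPM in WT (log2 fold change -0.43, edgeR adjusted p = 0.029). Sdc4, a heparan sulfate proteoglycan, rose to 50.8 ± 3.74 CPM in DKO, against 36.2 ± 4.37 CPM in WT (log2 fold change 0.49, edgeR adjusted p = 0.019). None of these 3 genes was called in a comparison of set 2, where Cxcl12 stood at 260 ± 30.5 CPM in DKO and 235 ± 15.2 CPM in dHet.

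Of the intracellular genes, Kalrn, a guanine nucleotide exchange factor, fell to 27.8 ± 3.27 CPM in DKO, against 48.7 ± 6.66 CPM in WT (log2 fold change -0.81, edgeR adjusted p = 0.0022). Mical2, an actin-oxidising enzyme of the family that acts below plexins in flies, rose to 563 ± 47.5 CPM in DKO, against 419 ± 19.9 CPM in WT (log2 fold change 0.42, edgeR adjusted p = 0.0039). In set 2, Kalrn was again called lower, at 34.4 ± 3.08 CPM in DKO against 57.8 ± 3.10 CPM in Irx3KO (edgeR adjusted p = 0.0077), the 1 call of 50 intracellular genes there, where 0.45% of all genes were called. It stood at 38.1 ± 5.88 CPM in Irx4KO, below Irx3KO (edgeR adjusted p = 0.032 for Irx3KO against Irx4KO). Mical2 was at 448 ± 11.6 CPM in Irx3KO and 562 ± 32.6 CPM in Irx4KO (edgeR adjusted p = 0.04). These were the 2 calls of 50 intracellular genes in Irx3KO against Irx4KO, where 0.306% of all genes were called.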

How the data were processed

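Polyadenylated RNA from embryonic ventricles was sequenced in 18 libraries with a directional kit, per the labels' protocols. The authors deposited estimated counts and TPM per transcript for each library, as kallisto writes them per the file headers. Per the submitters' processing notes, the tool was kallisto 0.42.2 with build mm9. No source used here gives the transcript release or strand setting. Counts were summed to genes by transcript ID with GENCODE M21 names. Of 88943 transcripts 78030 matched, and the unmatched ones held 6.42 to 6.77% of counts. Summed counts were rounded and scaled by TMM. Totals of 26721576 to 45946741 counts limit the precision of low genes. Genes with at least 0.5 CPM in 3 libraries were tested with edgeR 4.0.16 (R 4.3.3, quasi-likelihood, robust) in 1 fit of 6 cells, genotype within library set, with Benjamini-Hochberg adjustment over all 15347 genes and a threshold of 0.05. DESeq2 1.42.0, limma 3.58.1 (voom), other filters and scalings, covariates, counts rebuilt from TPM and leaving out each library were alternatives. The edgeR fit was also run on simulated counts with the same spread for every gene and no library set difference or length trend. These data hold both, so that run does not measure error rates here. Replicate libraries all differed by more than counting noise (smallest chi-square per gene 6.31). Sets were inferred from the libraries, since the labels do not name them.

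Genes named are those called in a comparison, the 3 with the smallest p in each, the 2 highest of each family and those with known roles in heart and vessels. The members and lists were chosen with earlier results of these data known. The contrasts by Irx4 or Irx3 genotype, their interaction, and leaving out libraries outside the compared groups were added after values were seen. Promoter sequences are from RefSeq (GRCm38.p6), and 59 members matched. File coordinates were not used.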

Additional observations from a re-analysis of the deposited data

Results flagged for a closer look

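Among the 6 DKO libraries, taken over both library sets, 5 of 61 guidance genes had 1 library far from the others. Chance alone flags about 1 group in 20 where libraries share 1 source, and these 6 come from both library sets, which differ technically. The share of all genes flagged in this way was not counted. DKO 5 was the library for 4 of them: Efna2 at 18.2 CPM, with the next library at 14.8 CPM, Efna4 at 12.8 CPM (next 9.07 CPM), Epha5 at 4.86 CPM (next 3.75 CPM) and Sema3d at 30.6 CPM, below the next at 44.4 CPM. The other was Ephb3 in DKO 4, at 36.3 CPM with the next at 17.4 CPM, a gene whose estimated counts fall in steps. DKO 5 also had the strongest trend on transcript length of the 18 libraries, with a Spearman's rank correlation across genes of -0.452, and its part in these values was not tested.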

How the results depend on the processing

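For guidance genes called in at least 1 fit of a comparison, no direction reversed under the alternatives run. The direction of the others was not followed. Members called in DKO against WT, 1 in edgeR, became 2 with a filter of 1 CPM, with a covariate for embryo sex or with RLE size factors, 7 in DESeq2, 6 with the length trend removed, and 0 with only the 2 groups compared or the same library set. With genotype as the only term, which sets DKO of both library sets against WT, the count stayed 1 (Sema3b). Leaving out each compared library gave 1 to 5. In DKO against Irx3KO the 1 call (Slit2) became 0 with counts rebuilt from TPM, a sex covariate, no filter, only the 2 groups, or the replicate block, and leaving out each compared library gave 0 to 0. The 0 of DKO against dHet became 2 in DESeq2 and 1 with the same library set. The 0 of Irx3KO against Irx4KO became 1 in DESeq2, 1 with the length trend removed, 3 with only the 2 groups and 1 with the same library set. The 2 calls of the added Irx4 contrast became 1 with counts rebuilt from TPM, a sex covariate, the length trend removed, no filter or the replicate block, and 4 in DESeq2, and leaving out each library gave 0 to 1. The cause was not tested. Over all genes, alternatives gave 13 to 603 calls against 243 in DKO against WT, 31 to 203 against 69 in DKO against Irx3KO, 11 to 178 against 15 in DKO against dHet, 13 to 529 against 47 in Irx3KO against Irx4KO, 1 to 26 against 4 in DKO against Irx4KO, 1 to 12 against 1 in Irx3KO against dHet, 2 to 33 against 2 in Irx4KO against dHet and 85 to 350 against 137 in the added Irx4 contrast.

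Same-numbered libraries of set 2 did not deviate together (15 pairs, correlations -0.215 to 0.13, median 0.013, against 0.005 over 39 other pairs), so the replicate block has no support as a pairing. With the block, Slit2 in DKO against Irx3KO had an edgeR adjusted p of 0.13. No paired analysis was possible in set 1 because its groups share no replicate number. Genes with means below 1 CPM, such as Unc5d, are measured least precisely.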
